A study of Mus musculus with 2 samples.

Results

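The Cyp2c gene cluster of mouse chromosome 19 was described in Foxa2 HiChIP libraries of wildtype mouse liver, from mice given GW4064 or vehicle. It was taken as the 10 genes Cyp2c55, Cyp2c65, Cyp2c29, Cyp2c39, Cyp2c38, Cyp2c40, Cyp2c37, Cyp2c54, Cyp2c50 and Cyp2c70, listed in their order along the chromosome, out of 21631 protein-coding genes. Every 50 kb bin that overlaps 1 of these genes, together with the bins between them, made up the region, which spans chr19:39000001-40200000 of mm10 and holds 24 of 54521 bins. The 10 genes touch 16 of those bins. The region also holds the protein-coding genes Cyp2c66, Cyp2c67, Cyp2c68 and Cyp2c69 and the pseudogenes Cyp2c52-ps, Cyp2c53-ps, Cyp2c72-ps and Cyp2c71-ps.

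In HiChIP, DNA ends that lie near each other in the nucleus are ligated and the joined fragments are recovered with an antiserum, here against Foxa2, so that each counted contact is a ligated pair of ends. The tested mice received a single gavage of GW4064, a synthetic compound that activates FXR, the nuclear receptor for bile acids, and the control mice received only the propylene glycol and Tween 80 solution in which it was given. All were wildtype, the sources used here name no strain, sex or age, and livers were taken 4 h after gavage. Each treatment has 1 library, the number of animals behind it is not stated, and each difference therefore compares 2 libraries, in which treatment and library cannot be told apart.

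Cyp2c enzymes are cytochromes P450 of the endoplasmic reticulum, abundant in hepatocytes, which oxidise drugs, steroids and polyunsaturated fatty acids. Many of the mouse enzymes turn arachidonic acid into epoxides or hydroxy acids, which act as lipid signals. Cyp2c70 stands apart in mouse liver as the enzyme that makes muricholic acids, the bile acids typical of rodents. Foxa2 is a forkhead pioneer factor of liver that binds motifs with the core TGTTTAC or close variants of it, and FXR classically binds an inverted repeat of AGGTCA next to its partner RXR.

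The region's genes arose by duplication, and promoter windows are shown because they let the copies be compared where a Foxa2 motif could lie. The 300-base windows run from 250 bases before to 50 bases after the start, are RefSeq sequence of GRCm38.p6, and are printed from 5′ to 3′ on the gene's own strand. Capitals mark matches to TGTTTAC, to TATTTAC (printed as GTAAATA where it lies on the opposite strand) or to CAAAGTCCA, the motif of the liver factor HNF4. The Cyp2c38 window is chr19:39463026-39463325 on the minus strand. The Cyp2c39 windows are chr19:39347096-39347395 and chr19:39510572-39510871 on the plus strand, since RefSeq gives that gene 2 starts. The Cyp2c37 window is chr19:39992174-39992473 and the Cyp2c50 window chr19:40089429-40089728, both on the plus strand. The Cyp2c70 window is chr19:40187237-40187536 on the minus strand.
Cyp2c38: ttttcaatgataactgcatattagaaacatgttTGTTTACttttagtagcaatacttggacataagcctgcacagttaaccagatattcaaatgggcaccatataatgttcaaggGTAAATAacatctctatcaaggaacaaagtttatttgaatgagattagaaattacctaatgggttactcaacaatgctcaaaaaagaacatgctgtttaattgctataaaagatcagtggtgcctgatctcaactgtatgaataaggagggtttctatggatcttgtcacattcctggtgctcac
Cyp2c39: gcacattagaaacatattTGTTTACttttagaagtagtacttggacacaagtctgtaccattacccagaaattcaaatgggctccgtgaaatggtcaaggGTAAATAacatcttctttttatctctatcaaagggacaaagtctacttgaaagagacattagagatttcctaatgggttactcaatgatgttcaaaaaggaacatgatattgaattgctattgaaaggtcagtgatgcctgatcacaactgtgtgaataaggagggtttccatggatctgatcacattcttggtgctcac
Cyp2c39 second start: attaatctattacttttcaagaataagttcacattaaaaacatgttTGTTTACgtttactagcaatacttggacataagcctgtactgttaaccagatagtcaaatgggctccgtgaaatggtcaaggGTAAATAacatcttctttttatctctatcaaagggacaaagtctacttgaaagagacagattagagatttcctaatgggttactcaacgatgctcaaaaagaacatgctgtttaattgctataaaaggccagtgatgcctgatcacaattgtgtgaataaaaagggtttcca
Cyp2c37: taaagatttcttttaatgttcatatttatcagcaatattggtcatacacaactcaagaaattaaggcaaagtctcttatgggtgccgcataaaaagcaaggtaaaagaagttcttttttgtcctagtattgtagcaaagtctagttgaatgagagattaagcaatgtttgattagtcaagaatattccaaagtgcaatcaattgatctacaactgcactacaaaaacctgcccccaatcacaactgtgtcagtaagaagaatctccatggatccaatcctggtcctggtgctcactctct
Cyp2c50: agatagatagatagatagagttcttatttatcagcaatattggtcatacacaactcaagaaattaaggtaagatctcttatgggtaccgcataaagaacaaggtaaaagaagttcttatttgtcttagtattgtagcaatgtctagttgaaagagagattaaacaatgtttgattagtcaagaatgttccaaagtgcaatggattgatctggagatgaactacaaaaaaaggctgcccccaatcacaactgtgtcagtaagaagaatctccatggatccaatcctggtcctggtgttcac
Cyp2c70: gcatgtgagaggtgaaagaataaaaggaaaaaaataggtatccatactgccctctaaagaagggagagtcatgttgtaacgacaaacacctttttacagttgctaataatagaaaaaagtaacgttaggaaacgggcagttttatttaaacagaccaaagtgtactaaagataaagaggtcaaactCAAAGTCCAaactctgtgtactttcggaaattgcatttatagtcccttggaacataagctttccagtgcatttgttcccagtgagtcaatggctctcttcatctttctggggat

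The windows of Cyp2c38 and Cyp2c39 were the ones among 9 matched members in which both forkhead motifs were found, and in all 3 windows of these genes the first bases of the motifs lay 82 bases apart. On either strand, TGTTTAC was found in 2 of 9 members and in 3.65% of 32851 promoter windows of the same length, and TATTTAC in 2 of 9 and in 3.04%. The HNF4 motif CAAAGTCCA was found in Cyp2c65, Cyp2c40 and Cyp2c70, which is 3 of 9 members, and in 0.475% of all windows. The FXR motif, an inverted repeat of AGGTCA with 1 base between, was found in 0 of 9 members and in 0.00913% of all windows. No motif overlapped another in the members. The windows of Cyp2c37 and Cyp2c50 were the most alike, at 86.6% identity over their alignment, followed by Cyp2c38 and the first start of Cyp2c39 at 78.1%. The median over 36 pairs of members was 54.4%. A match is a stretch of letters and shows no binding, and contacts per 50 kb bin cannot be placed on a promoter.

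The GW4064 library held 29003442 contacts and the vehicle library 22686004, a depth ratio of 1.28. Contacts between chromosomes were 18.3% of the GW4064 library and 22.3% of the vehicle library, and a shift of this size in library composition moves every ratio that is not scaled to the same kind of contact. Ratios are therefore GW4064 over vehicle after scaling to the genome-wide total of the same class, or at each distance. Each interval is at the 95% level and covers only the error of counting. DNA contacts do not measure expression and cannot check the cell types, and within-bin contacts are given for all marker lists as unscaled medians per bin. All covered bins had 152 in the GW4064 library and 111 in the vehicle library, and the 24 bins of the Cyp2c region had 187.5 and 128.5. In the GW4064 library the median was 129.5 for 8 hepatocyte markers, 158 for 5 Kupffer and leukocyte markers, 119.3 for 4 endothelial, 113.75 for 4 stellate and 123 for 4 cholangiocyte markers. In the vehicle library the medians of these lists were 138, 119, 121.75, 97 and 106.25. Their part in the results was not tested.

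The median bin of the Cyp2c region had more contacts than the median bin of chromosome 19 in both libraries, although the genes are similar copies. Some bins of the region lay below the chromosome 19 median in each library. A bin of the region had a median of 1083.5 contacts in the GW4064 library, with a range from 769 to 1452, against a median of 937 over chromosome 19. In the vehicle library the region had a median of 830, with a range from 607 to 1097, against 744.5 over chromosome 19. The lowest bin in both libraries was chr19:39650001-39700000, at Cyp2c68. None of the 24 bins was under 0.5 times the chromosome 19 median, although reads that map equally well to more than 1 copy may still have been lost, and no source used here describes their handling.

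Taken as a whole, the region was dense in contacts in both libraries, though not evenly so. Between different bins of the region, 4204 contacts were counted in the GW4064 library and 3093 in the vehicle library. That was 1.68 times and 1.76 times the number expected from the mean of all bin pairs at the same distances. Of 49644 windows of 24 bins along the genome, whose medians were 1.02 and 1.03, 99.5% lay below the region in the GW4064 library and 99.9% in the vehicle library. When the expected number also took in the total contacts of both bins, the level was 1.35 in the GW4064 library and 1.43 in the vehicle library. Of the 253 bin pairs at least 100 kb apart, 224 in the GW4064 library and 220 in the vehicle library were above expectation, as the map of contacts over expectation shows.

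**Figure D1:**
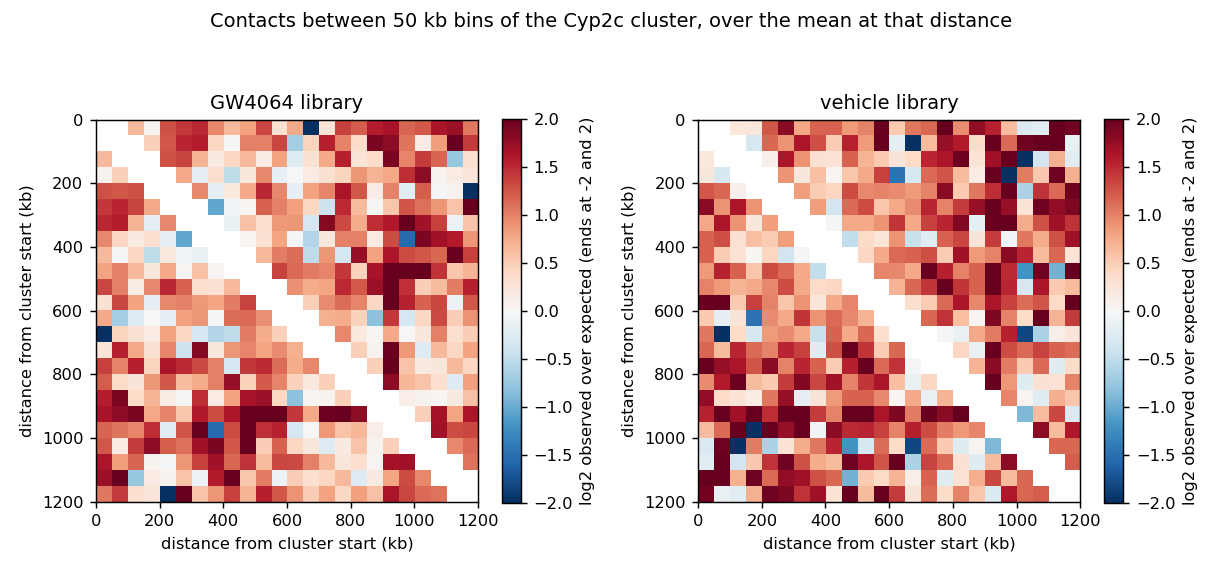
Contacts between 50 kb bins of the Cyp2c region as log2 of observed over expected at the same distance, GW4064 library at left and vehicle library at right. Both axes give the distance from the region's start in kb, pairs of the same or of adjacent bins are blank, and red is above the genome mean, as most pairs are in both libraries.

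The excess was mostly larger in classes of bins farther apart, so contacts inside the region fell off more slowly with distance than in the genome. In the GW4064 library the level was 1.51 times expectation at 50 to 100 kb, 1.81 at 150 to 200 kb, 1.81 at 250 to 450 kb, 2.08 at 500 to 700 kb and 2.17 from 750 kb up. In the vehicle library the levels at the same distances were 1.45, 1.83, 2.18, 2.36 and 2.75. The log-log slope of contacts on distance was -0.91 in the GW4064 library and -0.80 in the vehicle library, against -1.04 and -1.03 over the genome. Among these distance classes each library was thus highest at 750 kb or more, from 193 contacts in the GW4064 library and 176 in the vehicle library. In the GW4064 library that level was close to the one at 500 to 700 kb. Its single long distances varied widely, with 1.34 at 950 kb and 3.32 at 1050 kb.

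The counts of the 2 libraries differed beyond counting error in 2 of 3 long distance classes and in none of the 2 short ones. At 50 to 100 kb, 2051 contacts in the GW4064 library stood against 1407 in the vehicle library, a log2 ratio of 0.05 with an interval from -0.05 to 0.15. At 250 to 450 kb the counts were 835 in the GW4064 library and 692 in the vehicle library, with a log2 ratio of -0.27 (-0.41 to -0.12). Pairs 500 to 700 kb apart gave -0.18 (-0.40 to 0.04), and pairs 750 kb or more apart gave -0.34 (-0.64 to -0.04). Over all distances from 250 kb up, 1407 contacts in the GW4064 library against 1172 in the vehicle library gave a ratio of 0.838 (0.775 to 0.906). A ratio at least this low is common in these libraries, since 16.5% of 48921 windows of the same size had a lower one. Of 1082 such windows on chromosome 19, 27.7% did.

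**Figure D2:**
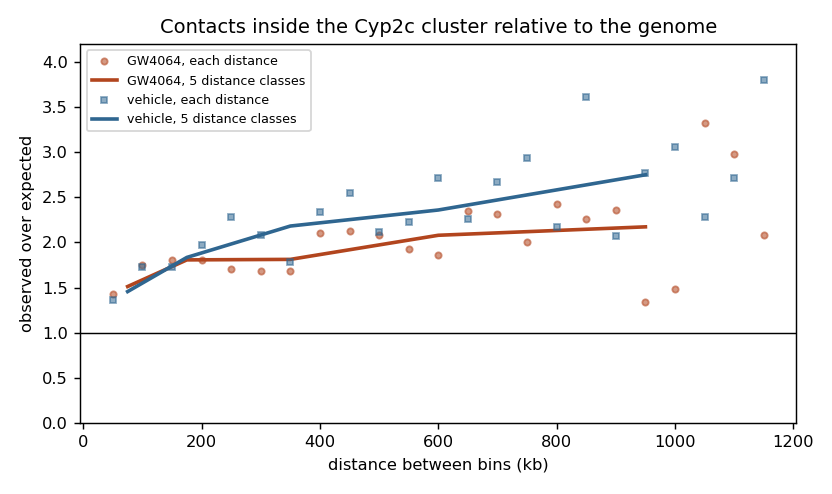
Contacts inside the Cyp2c region over the genome mean at the same distance, against the distance between bins in kb. Points are single distances and lines join 5 distance classes, with GW4064 in red and vehicle in blue, and the GW4064 line runs below the vehicle line from 250 kb on, at 1.81 against 2.18 in that class.

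The contacts that left the region for its flanks were lower in the GW4064 library on both sides. With the 2 Mb upstream there were 1211 contacts in the GW4064 library and 1212 in the vehicle library, a ratio of 0.729 (0.673 to 0.790) after matching on distance. With the 2 Mb downstream there were 865 in the GW4064 library and 882 in the vehicle library, a ratio of 0.706 (0.642 to 0.776). Relative to expectation, the upstream flank was at 0.872 in the GW4064 library and 1.20 in the vehicle library, and the downstream flank at 0.623 and 0.873. The flank ratios were nearer to the low end of the genome than the ratio inside, with 6.05% of windows lower upstream and 4.85% downstream, against 32.7% for contacts inside the region. Among windows of chromosome 19 alone these shares were 11.5% upstream, 9.52% downstream and 39.6% inside. Upstream, the value depended on the reach, and the log2 ratio was -0.46 for 2 Mb and -0.22 (-0.38 to -0.07) for the nearest 500 kb.

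Contacts within a bin went the other way from contacts with the flanks and from contacts inside the region at 250 kb or more. Nearest contacts between bins, at 50 to 100 kb, had a log2 ratio of 0.05 with an interval that includes 0. The 24 bins held 4734 within-bin contacts in the GW4064 library and 3145 in the vehicle library, a ratio of 1.09 (1.04 to 1.14). The same measure was below this in 76.0% of the windows along the genome. The sum of all contacts of the region was 21854 in the GW4064 library and 17356 in the vehicle library, a ratio of 0.985 (0.965 to 1.00) whose interval includes 1. Inside the region as a whole the ratio was 0.952 (0.908 to 0.997), and for contacts up to 1 Mb, flanks included, it was 0.915 (0.879 to 0.954). Scaled to chromosome 19, the log2 ratio inside was -0.03 (-0.09 to 0.04), an interval that includes 0. So did the interval in bins of the members alone and after dividing by the ratio of total contacts of both bins. With 1 bin fewer at each edge, or without adjacent bins, the interval lay below 0. Scaled to all contacts of the library instead, the log2 ratio up to 1 Mb was 0.03, and without matching on distance the log2 ratio inside was 0.04, so the direction of both rests on the scaling.

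**Figure D3:**
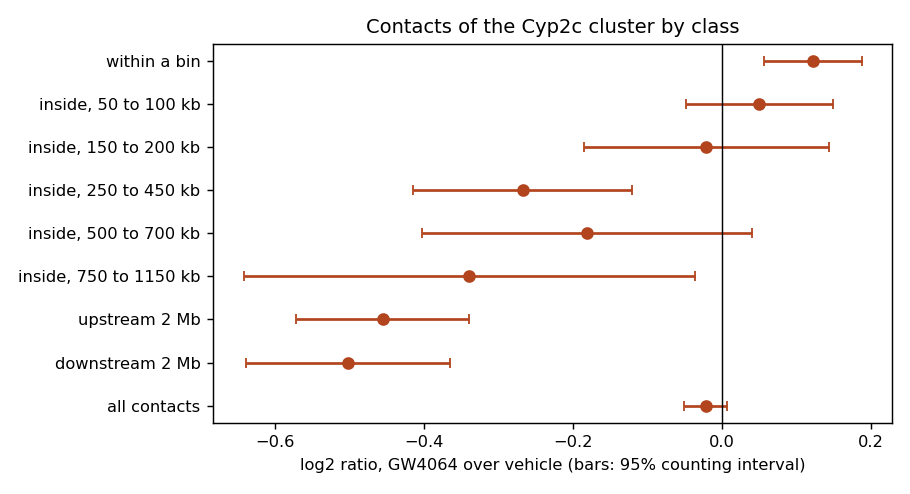
Log2 ratio of GW4064 over vehicle for each class of contacts of the Cyp2c region, with bars for the 95% counting interval. Within-bin contacts lie above 0 at 0.12, and the flanks are lowest at -0.46 upstream and -0.50 downstream.

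Of all contacts of the region, 21.7% in the GW4064 library and 18.1% in the vehicle library lay within a bin, and 32.6% (32.0 to 33.2) and 34.2% (33.5 to 34.9) joined another chromosome. Per bin, the median share between chromosomes was 25.8% in the region and 28.7% over chromosome 19 in the GW4064 library, and 28.4% and 33.5% in the vehicle library. Over bins of all chromosomes the median was lower than in the region, at 21.8% in the GW4064 library and 25.9% in the vehicle library. The bins of Cyp2c66 stood out in the region. At chr19:39150001-39200000 the share between chromosomes was 48.1% (45.4 to 50.7) in the GW4064 library and 45.8% (42.7 to 49.0) in the vehicle library. At chr19:39100001-39150000 it was 39.9% in the GW4064 library and 38.7% in the vehicle library. These bins also had low contact levels with the rest of the region, at 1.32 and 1.45 times expectation in the GW4064 library and 1.19 and 1.34 in the vehicle library.

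Each of the 10 genes was measured over all bins it overlaps, by its contacts with any other bin at a distance of 1 Mb or less. A gene was called when its log2 ratio was at least 0.32 in size, either way, with an interval that excluded 0. None of the 10 was called in either direction, while 32.0% of 20509 protein-coding genes with at least 200 such contacts were called lower and 1.48% higher. The median log2 ratio of the 10 was -0.13, against -0.17 over all genes and -0.27 over 700 genes of chromosome 19, and no member's interval excluded the median gene. Scaled to that median gene, again none of the 10 was called, where 17.2% of all genes were called lower and 9.66% higher. By the interval alone, 4 of 10 lay below 0, where 41.0% of all genes did, and 0 of 10 above 0, where 5.28% did. The 10 genes thus sat near the middle of all genes and spread little among themselves, from -0.26 to 0.00.

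Cyp2c29, Cyp2c39 and Cyp2c38, which form epoxides of arachidonic acid, lie in the first part of the region. Cyp2c29 (chr19:39287044-39330713) had the lowest ratio of the 10, with 773 contacts in the GW4064 library and 649 in the vehicle library, a log2 ratio of -0.26 (-0.41 to -0.10). Cyp2c39, which also hydroxylates retinoic acid, had 2021 contacts in the GW4064 library and 1549 in the vehicle library over 6 bins, a log2 ratio of -0.13 (-0.22 to -0.03). Cyp2c38 had 997 and 766, a log2 ratio of -0.13 (-0.27 to 0.01). The RefSeq span of Cyp2c39 (chr19:39347346-39569568) contains all of Cyp2c38 (chr19:39389556-39463103), so that the 3 bins of Cyp2c38 are also bins of Cyp2c39 and the values above are not independent. The bins of their starts, looked at after the data were seen, differ, and there the log2 ratio was -0.25 (-0.45 to -0.04) for the first start of Cyp2c39 and -0.07 (-0.27 to 0.14) for Cyp2c38, with intervals that overlap.

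Genes of the second part of the region gave like values. Cyp2c40, an arachidonic acid hydroxylase, had 806 contacts in the GW4064 library and 643 in the vehicle library, a log2 ratio of -0.18 (-0.33 to -0.03). Cyp2c37, which also hydroxylates arachidonic acid, had 773 and 580, a log2 ratio of -0.09 (-0.25 to 0.06). Cyp2c54 had 743 in the GW4064 library and 559 in the vehicle library, a log2 ratio of -0.10 (-0.26 to 0.06), and its neighbour Cyp2c50 had 694 and 566, a log2 ratio of -0.22 (-0.38 to -0.05). Both of these enzymes metabolise arachidonic acid. The intervals of these neighbours overlap one another, and Cyp2c37, Cyp2c54 and Cyp2c50 share bins.

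The ends of the region hold genes with other roles. Cyp2c55 and Cyp2c65, at the upstream end and better known from the gut than from the liver, had the ratios nearest to 0. Cyp2c55 had 311 contacts in the GW4064 library and 221 in the vehicle library, a log2 ratio of -0.02 (-0.27 to 0.24), and Cyp2c65 had 354 and 248, a log2 ratio of 0.00 (-0.23 to 0.24). At the downstream end Cyp2c70, the muricholic acid enzyme, had 379 in the GW4064 library and 306 in the vehicle library, a log2 ratio of -0.20 (-0.42 to 0.02). It was also the gene whose contacts reached out of the region most. Of its contacts up to 1 Mb, 62.5% (57.4 to 67.4) in the GW4064 library and 58.2% (52.4 to 63.8) in the vehicle library stayed inside the region, against 91.8% and 89.4% for Cyp2c40 near the middle. Cyp2c55, at the other end, had 74.3% in the GW4064 library and 71.0% in the vehicle library, and a gene at an end has a flank within reach.

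Within-bin contacts gave a median log2 ratio of 0.16 over the 10 genes, against -0.16 over all genes. Cyp2c65 was the 1 of 10 called, with 247 within-bin contacts in the GW4064 library and 131 in the vehicle library, a log2 ratio of 0.45 (0.14 to 0.76). In all, 2.12% of genes were called higher by this measure and 26.1% lower. Cyp2c54 had 515 in the GW4064 library and 318 in the vehicle library (0.23, interval 0.02 to 0.43), and Cyp2c39 had 1291 and 832 (0.17, interval 0.04 to 0.29). By the interval alone these 3 of 10 lay above 0 and none below, where 4.34% of all genes lay above and 30.7% below. The lowest were Cyp2c40 and Cyp2c70, both at -0.09 with intervals that include 0.

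**Figure D4:**
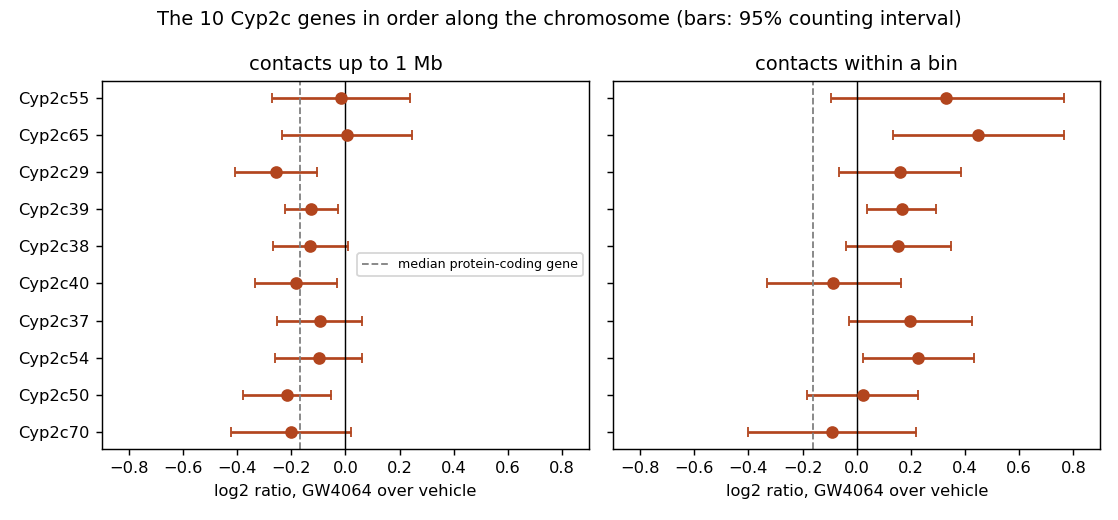
Log2 ratio of GW4064 over vehicle for the 10 Cyp2c genes in chromosome order from the top, for contacts with other bins up to 1 Mb at left and for contacts within a bin at right, with 95% counting intervals. The dashed line is the median protein-coding gene, at -0.17 at left and -0.16 at right, and the genes lie around it at left and mostly to its right in the other panel.

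Pairs of Cyp2c genes contacted each other above expectation almost throughout. For the 37 pairs of genes whose nearest bins are at least 100 kb apart, the median level was 2.18 times expectation in the GW4064 library and 2.38 in the vehicle library, and 37 and 35 pairs were above 1. The highest pair in both libraries was Cyp2c65 with Cyp2c50, near opposite ends of the region, with 12 contacts and 3.65 times expectation in the GW4064 library and 16 contacts and 6.69 times in the vehicle library. Cyp2c29 with Cyp2c37 had 33 contacts in the GW4064 library and 20 in the vehicle library, at 3.28 and 2.78 times expectation. Cyp2c38 with Cyp2c54 had 52 contacts, at 3.05 times, in the GW4064 library and 25, at 2.07 times, in the vehicle library, and the interval of their log2 ratio of 0.56 runs from -0.15 to 1.31.

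The pair of Cyp2c29 and Cyp2c38, with the first start of Cyp2c39 between them, was an exception. It had 91 contacts in the GW4064 library and 106 in the vehicle library, which is 0.845 and 1.41 times expectation and a log2 ratio of -0.74 (-1.16 to -0.32). This lies at the border at position 39350000, inside the region, across which 492 contacts were counted in the GW4064 library and 441 in the vehicle library, a log2 ratio of -0.37 (-0.56 to -0.18). The bin chr19:39350001-39400000, which begins at that border, had the lowest level with the rest of the region in the GW4064 library, 1.08 times expectation, against 1.33 in the vehicle library. Among the 37 distant pairs, 2 had an interval wholly below 0 and none wholly above. They were Cyp2c65 with Cyp2c54, at 5 contacts in the GW4064 library and 15 in the vehicle library, and Cyp2c39 with Cyp2c40, at 142 and 126, a log2 ratio of -0.37 (-0.72 to -0.01). Pairs of genes that share bins also share contacts and are not independent. Cyp2c54 and Cyp2c50 share chr19:40050001-40100000, whose contacts with Cyp2c65, 3 in the GW4064 library and 10 in the vehicle library, count for both.

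One bin without any protein-coding gene held the strongest contacts of the region relative to distance. The bin chr19:39900001-39950000 holds the start of the pseudogene Cyp2c71-ps and lies between Cyp2c69 and Cyp2c37. Its contacts with the rest of the region were 2.50 times expectation in the GW4064 library and 2.52 in the vehicle library, above each other bin of the region. It also had the most contacts in all in the GW4064 library, 1452, against 1087 in the vehicle library. Of the 5 bin pairs with the most contacts relative to distance among those with at least 20, 4 involved it. With the bin shared by Cyp2c39 and Cyp2c38 at chr19:39450001-39500000, 450 kb away, it had 24 contacts in each library, at 6.02 times expectation in the GW4064 library and 8.64 in the vehicle library. When the expected number also took in the local contacts of both bins, this pair was at 1.49 in the GW4064 library and 2.01 in the vehicle library.

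The other pairs of this bin ran to bins of Cyp2c39, Cyp2c29 and Cyp2c40, and are again given relative to distance. With chr19:39500001-39550000, inside the RefSeq span of Cyp2c39, it had 22 contacts in the GW4064 library and 18 in the vehicle library, at 4.90 and 5.80 times expectation. With chr19:39300001-39350000, which holds the end of Cyp2c29 and the first start of Cyp2c39, it had 9 in the GW4064 library and 16 in the vehicle library, at 3.05 and 7.67 times. With the bin of Cyp2c40 and Cyp2c69 it had 57 and 56, at 3.45 and 4.99 times. The fifth pair joined that bin of Cyp2c29 and Cyp2c39 to the Cyp2c37 bin, 650 kb away, with 14 contacts in the GW4064 library and 9 in the vehicle library, at 5.16 and 4.67 times. With local contacts in the expected number too, the 3 pairs of the pseudogene bin named here were at 1.19, 0.82 and 0.98 in the GW4064 library and at 1.33, 1.70 and 1.16 in the vehicle library, and the fifth pair at 1.82 and 1.29. With counts this small the intervals of the library ratio included 1 for 4 of these 5 pairs.

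Bin pairs were taken as enriched from 10 contacts and a level of 2 times expectation upwards, and were counted among the 253 pairs of the region that are at least 100 kb apart. There were 50 in the GW4064 library and 46 in the vehicle library, where 3.69% and 2.25% of all pairs at such distances in the genome passed. The genome shares in this paragraph are not matched on distance. The region has fewer pairs the longer the distance, and 10 contacts are harder to reach at long distances. The genome shares may therefore be too low to set beside the region. The libraries shared 24 of the enriched pairs, which is 48.0% of those in the GW4064 library and 52.2% of those in the vehicle library. When the expected number also took in the local contacts of both bins, 2 pairs in the GW4064 library and 4 in the vehicle library were left and none was shared, with 2.01% and 1.08% of pairs passing in the genome. Few single pairs thus stood out once the high local contacts of their bins were allowed for.

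Contacts across bin borders were counted between bins up to 500 kb apart and are given as log2 over the chromosome 19 mean. They placed the region between a dip upstream and a dip downstream. The highest value inside was 1.03 in the GW4064 library, at position 39550000, and 1.15 in the vehicle library, at 39650000. At the upstream edge the value was -0.05 in the GW4064 library and 0.02 in the vehicle library, and the lowest value nearby was at 38950000 in both, at -0.46 and -0.34. At the downstream edge it was -0.04 in the GW4064 library and 0.35 in the vehicle library. Both libraries had a dip at 40550000 to 40600000, with a lowest value of -0.62 (-0.81 to -0.43) at 40550000 in the GW4064 library and -0.62 (-0.85 to -0.40) at 40600000 in the vehicle library. Nearer to the region, at 40300000, the value was -0.71 (-0.90 to -0.51) in the GW4064 library and -0.02 (-0.21 to 0.16) in the vehicle library.

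**Figure D5:**
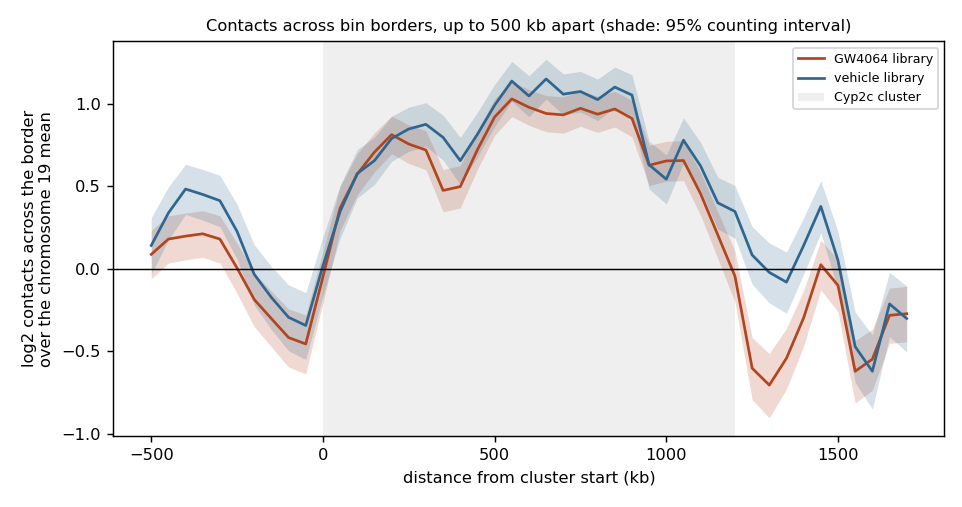
Contacts across each bin border up to 500 kb apart, as log2 over the chromosome 19 mean, against the distance from the start of the Cyp2c region in kb, with the region in grey and shading for the 95% counting interval. GW4064 is in red and vehicle in blue, and the lines part just downstream of the region, with -0.04 against 0.35 at its downstream edge.

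The borders that differed lay mostly downstream of Cyp2c70. At the downstream edge 343 contacts crossed in the GW4064 library and 323 in the vehicle library, a log2 ratio of -0.44 (-0.67 to -0.22). At position 40250000 the counts were 233 in the GW4064 library and 269 in the vehicle library, a ratio of 0.598 (0.499 to 0.715). By the same rule as for genes, 12.6% of 49581 borders in the genome were called lower and 5.70% higher. Of 10 borders in the 500 kb downstream of the region 5 were called lower, of 10 upstream 1, and of 23 inside 1, the one at 39350000. The 5 downstream lay in a row, from position 40250000 to 40450000. Neighbouring borders count many of the same contacts, so these calls are not independent. None of these 43 borders was called higher.

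Of the genes reported beyond the edges, Pdlim1 was lowest. Upstream, Noc3l, a nucleolar protein gene, and Tbc1d12, of a family of Rab regulators, both had a log2 ratio of -0.11 for contacts up to 1 Mb, and Hells, a chromatin remodelling helicase, had -0.23 (-0.40 to -0.05). Downstream, Pdlim1, a PDZ and LIM domain protein gene, had 485 contacts in the GW4064 library and 480 in the vehicle library, a log2 ratio of -0.49 (-0.68 to -0.31). Aldh18a1, an enzyme of proline synthesis, had -0.18 (-0.47 to 0.12). Pdlim1 was called lower, as 32.0% of all genes were, and no Cyp2c gene of the region was.

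The Cyp2c genes of the region that are not among the 10 had log2 ratios of 0.04 for Cyp2c66, -0.19 for Cyp2c67, -0.21 for Cyp2c68 and -0.16 for Cyp2c69. Cyp2c23, a Cyp2c gene several megabases downstream on chromosome 19, had 236 contacts in the GW4064 library and 249 in the vehicle library. Its log2 ratio was -0.59, and it was the 1 of these 5 called lower, where 32.0% of all genes were. Its locus and the region shared 6 contacts in the GW4064 library and 1 in the vehicle library, against 8.02 and 6.37 expected. No excess of contacts between these Cyp2c loci was seen at this depth.

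None of the genes on 4 lists of related function was called higher on this scale, and each list had genes called lower, where 32.0% of all genes were. Of 34 other hepatic P450 genes, 13 were called lower and 0 higher, with a median log2 ratio of -0.23, from Cyp2d26 at -0.63 to Cyp4a14 at 0.11. Of 17 electron donors and regulators of P450 genes, 10 were called lower and 0 higher, with a median of -0.45. Rxra, the partner of FXR, was lowest at -0.95, with 266 contacts in the GW4064 library and 360 in the vehicle library, and Ahr, a sensor of xenobiotics, was highest at 0.06. Of 12 genes of eicosanoid metabolism, 6 were called lower and 0 higher, with a median of -0.32, from Ptges at -0.74 to the epoxygenase Cyp2j5 at 0.11. Of 12 genes of bile acid synthesis, 5 were called lower and 0 higher, with a median of -0.24, from Scp2 at -0.77 to Cyp39a1 at 0.16. Scaled to the median gene, where 17.2% of all genes were called lower and 9.66% higher, the numbers called lower were 6 of the 34 P450 genes, 7 of the 17 donors and regulators, 1 of the 12 eicosanoid genes and 4 of the 12 bile acid genes. On that scale Cyp39a1, an oxysterol hydroxylase, was called higher, at 0.33 (0.14 to 0.51).

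Other P450 and conjugation gene clusters of liver, measured the same way, differed among themselves. The Cyp3a cluster spans 17 bins, the Ugt2 cluster 13 and the Cyp4a cluster 9, against 24 for the Cyp2c region. Their levels and ratios therefore cover unlike ranges of distance. Inside the Cyp3a cluster the level was 1.55 times expectation in the GW4064 library and 1.79 in the vehicle library, with a ratio of 0.859 (0.809 to 0.912). From 250 kb up the Cyp3a ratio was 0.797, close to the 0.838 of the Cyp2c region. Inside the Ugt2 cluster, which encodes glucuronosyltransferases, the level was higher than in the Cyp2c region, at 2.22 and 2.17, with a ratio of 1.01 (0.952 to 1.08). From 250 kb up the Ugt2 ratio was 0.992 (0.866 to 1.14), an interval that overlaps that of the Cyp2c region. Inside the Cyp4a cluster the level was lower, at 1.20 in the GW4064 library and 1.18 in the vehicle library, with a ratio of 1.01.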

How the data were processed

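Foxa2 HiChIP contacts were compared between 1 GW4064 and 1 vehicle library of liver. Per the labels' protocols, proximity ligation used the Arima-HiC+ kit on pulverized tissue, and the submitters' processing notes name HiC-Pro, Bowtie2 2.2.9 and the mm10 build. Filters, duplicates and multiply mapping reads are not described in these sources. The deposited matrices hold raw counts of contacts per pair of 50 kb bins, without normalization, and the deposited bin tables hold only coordinates and an index.

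Chromosomes 1 to 19 and X were used. Expected numbers are means over covered bin pairs at the same distance. Ratios have exact conditional binomial intervals and shares exact Clopper-Pearson intervals, and with 1 library per group no p-value was computed. Depth was 29003442 contacts for GW4064 and 22686004 for vehicle. Gene spans came from RefSeq GRCm38.p6, the assembly of mm10, and of 6 further Cyp2c names 5 matched, as Cyp2c44 is an older name of Cyp2c23. Promoter sequence was available for 9 of 10 members. Named besides the members are the other Cyp2c genes, the 3 nearest genes on each side, the 5 top bin pairs and the ends of each list, and 1 gene so named is not reported here; gene and bin pairs described beyond these were chosen after their values were seen. The calls were tested on simulated data. Members, lists and alternatives were chosen with earlier results of these data known. The software was matplotlib 3.10.9, scipy 1.17.1, pandas 2.3.3, numpy 2.4.6 and Biopython 1.88 under Python 3.11.15.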

Additional observations from a re-analysis of the deposited data

How the results depend on the processing

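No paired analysis was possible because each treatment has 1 library. The same direction and size were kept in 75 of 107 alternative values that bear on a comparison. That count includes values that could not change, so it overstates how far the results were tested. No bin was low enough to be left out, and each member passed the minimum of contacts. A stricter fold cannot add calls where none were made. The log2 ratio of all contacts was 0.061 scaled to chromosome 19 and -0.059 for contacts on chromosome 19. The ratio turned to 0.027 for contacts up to 1 Mb scaled to all contacts of the library, and to 0.037 inside the region without distance matching. With total contacts of both bins in the expected number, a choice made after seeing the data, the level inside was 1.35 in the GW4064 library and 1.43 in the vehicle library. The upstream flank gave -0.28 for 1 Mb and -0.22 for 500 kb. Contacts between chromosomes were 41.6% in the GW4064 library and 41.7% in the vehicle library of contacts between different bins, and 29.1% and 31.1% in bins of the members. The vehicle slope without adjacent bins was -0.75.

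For the 10 genes, within-bin contacts gave 1 called higher and a median of 0.16, with 0.16 for Cyp2c29, 0.17 for Cyp2c39 and 0.022 for Cyp2c50 turned in sign. Scaled to the median gene the median was 0.042 and Cyp2c39 was at 0.043, and Cyp2c39 was at 0.015 for total contacts. Enriched pairs, of 253, numbered 2, 23 and 77 in the GW4064 library with local contacts in the expected number, a minimum of 20 contacts and 1.5-fold. In the genome 2.01%, 0.992% and 6.18% of pairs passed there. In the vehicle library they numbered 4 and 12 with the first and second of these, where 1.08% and 0.504% passed. The genome shares are again not matched on distance. In a 250 kb window the downstream edge was at 0.26 in the GW4064 library and 0.62 in the vehicle library. Numbers called lower were 0 of the other Cyp2c genes, 8 of the P450 genes and 3 of the eicosanoid genes for total contacts, where 31.2% of all genes were. Scaled to the median gene they were 6 P450 genes and 1 eicosanoid gene, where 17.2% of all genes were. At 1.5-fold they were 1 P450 gene, 6 donors and regulators, 1 eicosanoid gene and 3 bile acid genes, where 11.5% of all genes were. In all these cases the cause was not tested. No bin of the region was under 0.5 times the chromosome 19 median, so leaving out such bins left the values as they were. Most bin pairs far apart held under 20 contacts per library, which limits single pairs.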
